A study of Mus musculus with 12 samples.

Results

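The genes described here encode the proteins of the mitochondrial ribosome. They were taken as every gene of the deposited count table whose symbol begins with Mrpl (large subunit) or Mrps (small subunit), followed by a number and at most 1 letter from a to d. The rule found 78 of 56691 genes, 49 named Mrpl and 29 named Mrps, on 17 chromosomes. The symbol does not always match the subunit, as described below for Mrps18a and Mrps36. It left out 5 pseudogenes of the same family. All 78 members passed the filter on low counts in every comparison.

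RNA was sequenced from pools of mouse oocytes on a C57BL/6 background in 12 libraries, 2 for each of 6 groups, from wild-type females (WT) and from females with a total knockout of Alkbh5 (KO). ALKBH5 is a demethylase that removes N6-methyladenosine (m6A) from RNA, and the knockout deleted exon 1 with the start codon by CRISPR-Cas9 in every cell of the animal. Juvenile females of both genotypes were primed with PMSG, a gonadotropin that makes follicles grow, and their oocytes were held in prophase arrest with milrinone and then cultured without it in M16 medium. Groups were labelled as germinal vesicle (GV, the arrested oocyte), germinal vesicle breakdown (GVBD) and metaphase II (MII, the mature egg). The study described most KO oocytes as failing to break down the germinal vesicle and few as extruding a polar body. Earlier stages may thus be present in KO libraries labelled GVBD and MII, and a difference in RNA level and a difference in stage reached cannot be told apart in these groups. The study describes a set number of oocytes per pool, which its methods and a figure legend give differently, and no number for other cells. In a bulk sample, fewer cells of a type and less RNA per cell cannot be told apart either. The libraries capture RNA through the poly(A) tail, so a shorter tail and less RNA cannot be told apart.

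The mitochondrial ribosome translates the few messenger RNAs that are made inside mitochondria, all of which encode subunits of the respiratory chain and ATP synthase. Its ribosomal RNAs come from mitochondrial DNA, whereas all of its proteins are made from nuclear genes in the cytosol and imported. The mouse oocyte holds a large stock of mitochondria, stops transcription before maturation, and removes much of its stored RNA between GV and MII.

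Total counts lay between 28557742 and 40247810 per library, and the ERCC sequences, synthetic RNAs added in equal amount to each tube, took 221927 to 838409 of them. Levels below are scaled counts, the count multiplied by the mean ERCC count over all libraries and divided by the ERCC count of its own library. Alkbh5 had 5355 to 10181 counts in the 6 WT libraries and 54 to 143 in the 6 KO libraries. All 12 oocyte markers were detected in every library, and together made up 10317.16 to 23531.93 counts per 1000000. The 12 markers of cumulus and granulosa cells summed to 40.08 to 87.72 per 1000000, mostly Cyp19a1 and Nr5a2. Fshr had 17 to 221 counts and Kitl 73 to 263, while Inha and Inhba reached 123 and 130. Cyp11a1, Has2, Ptx3 and Tnfaip6 had at most 33 counts, and Amh and Foxl2 at most 4 and 5. The 5 markers of theca and stroma summed to 1.20 to 89.46 per 1000000. Col3a1, Col1a1 and Pdgfra were highest in WT GVBD replicate 2, at 1196, 987 and 592 counts. Dcn reached 366 counts, and Cyp17a1 had 11 or fewer. The 4 blood markers, almost wholly haemoglobin, split the libraries: they summed to 690.07 to 4121.61 per 1000000 in both WT GVBD and both KO GV libraries, in WT GV replicate 2 and in KO MII replicate 1, and to 1.23 to 32.58 in the other 6. Their part in the results was not tested.

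The members differed widely in level in WT GV oocytes, where scaled counts per kilobase of annotated exon spanned more than 3 orders of magnitude. Mrps33 was the highest at 56100 per kilobase. Mrps18c followed at 39430 and Mrps21 at 32848.9, so the first 3 places belonged to small subunit proteins. Next came the large subunit proteins Mrpl22 at 15747.1 and Mrpl35 at 11735. The lowest members were Mrps10 at 39.1, Mrps30 at 30.8 and Mrpl19 at 11.2 per kilobase. The leading 3 members by count took 31.2% to 41.0% of all member counts in a library, so sums over the family mostly describe the abundant members. Exons of all annotated transcripts were joined for these lengths, which lowers the value of a gene with long rare transcripts such as Mrpl33.

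In scaled counts, Mrps33 had 93347.1 and 93690.3 in the WT GV libraries and 13442.7 and 9910.4 in the WT MII libraries. Mrps21 had 27230.0 and 21320.7 in WT GV and 3227.1 and 2255.4 in WT MII. For both genes the GV libraries lay far above the MII libraries.

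Promoters were examined because nuclear genes of mitochondrial function are known to use the transcription factors NRF1, ETS proteins such as GABP, and YY1. RefSeq windows on GRCm38.p6, 250 bases before to 50 bases after the start of the gene, were found for 69 members. Each motif was searched on both strands. The NRF1 motif, a 10-base core with 1 free position, was matched in 13 members, or 18.8%, against 5.2% of the 27025 genes with a window. The ETS motif CCGGAAG was matched in 26 members (37.7%, against 9.9%), and the YY1 motif AAGATGGCG in 8 members (11.6%, against 1.6%). A match describes the letters and not a bound site. The windows below show 1 match of each motif, from the member with the highest level per kilobase that held it, with the match in capitals. They lie on the minus strand at chr3:95871586-95871615, chr6:39810887-39810916 and chr6:71823742-71823771. The ETS match is on the opposite strand and reads in reverse complement.
Mrps21, NRF1: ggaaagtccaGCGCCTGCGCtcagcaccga
Mrps33, ETS: aagtaaaggggggcgggcCTTCCGGggacg
Mrpl35, YY1: ggcaggctgcAAGATGGCGgcttccatctt

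As messenger RNAs, the members were short. The chosen coding transcript (best annotated principal isoform in GENCODE M21, then the longest coding part) had a median coding length of 582 bases, against 1350 for all tested genes. The median 3′ UTR was 328 bases, against 836. GC content was alike in median, at 50.0% against 49.7%. The pentamer GGACT, the commonest core of m6A sites, was missing from 14 members (17.9%, against 9.8% of tested genes), among them Mrpl33 and Mrpl55. The median number of GGACT was 1 per member and 3 per tested gene, and shorter transcripts hold fewer by length alone.

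The first question was how the family changed as WT oocytes matured. Member counts made up 13.68 and 12.07 of every 1000 endogenous counts in the WT GV libraries and 12.66 and 11.1 in WT GVBD, but only 4.42 and 4.54 in WT MII. Against ERCC, member counts per ERCC count were 1.435 and 1.194 in the GV pair, 1.424 and 0.835 in the GVBD pair, and 0.324 and 0.213 in the MII pair. The MII libraries lay below all others of the genotype on both scales. The summed scaled level was 531137.5 ± 68889.9 (SD, n = 2) at GV and 108587 ± 31681.2 (SD, n = 2) at MII, 79.6% lower. Relative to the median of all genes, the median member was lower by 1.64 and 1.70 on the log2 scale in the MII libraries.

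**Figure D1:**
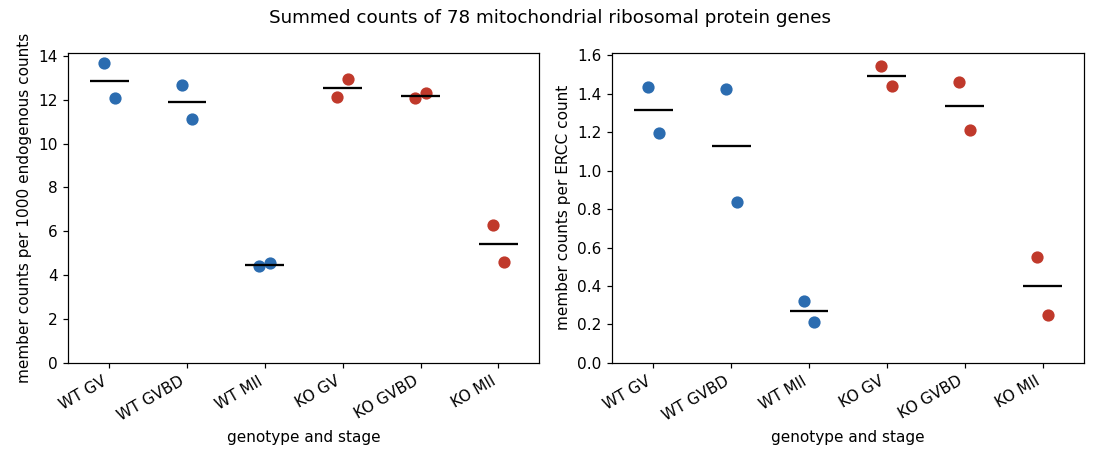
Summed counts of the 78 members in each library, per 1000 endogenous counts (left) and per ERCC count (right), with the genotype and stage on the x axis. Points are libraries (2 a group) and bars are means. On the left scale the 4 MII libraries lie between 4.42 and 6.29 and the other 8 between 11.1 and 13.68.

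In the test of single genes, 58 of the 78 members fell in WT from GV to MII and none rose. The test was edgeR's quasi-likelihood test with ERCC scaling, and a gene passed at a Benjamini-Hochberg adjusted p under 0.05 over all genes tested and a change of at least 2-fold. In this comparison 30.9% of all tested genes passed, nearly all of them as lower (30.5%), against 74.4% of the members. Among genes that no library held at under 10 counts (the strict filter below), 34.8% passed. The median log2 fold change was -2.65 over the members and -1.06 over all genes. By symbol, 36 of the 49 Mrpl members fell, with a median of -2.63, and 22 of the 29 Mrps members, with a median of -2.66. In 69 members both MII libraries lay below both GV libraries, as they did in 58.0% of all tested genes, and in none did both lie above. With TMM scaling, which assumes that most genes do not change, 49 members passed as lower (16.2% of all genes) and 2 as higher, Mrpl45 and Mrps5 (8.47% of all genes). The median of all genes then stood at -0.14 and that of the members at -1.72.

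The member that fell furthest in WT was Mrpl33, a small protein of the large subunit whose bacterial counterpart sits near the tRNA exit site. The GV libraries held 18829.6 and 15103.1 scaled counts, the GVBD libraries 24954.6 and 11982.1, and the MII libraries 216.1 and 196.6. The GV and GVBD libraries overlapped, and both MII libraries lay far below them. The log2 fold change from GV to MII was -6.36 ± 0.59 (SE, adjusted p = 2.64e-24). With all 12 libraries in 1 edgeR model the value was again -6.36, and the adjusted p was 0.000198. Mrps18c came next, with 46907.9 and 37945.4 in the GV pair, 58314.7 and 30906.8 in the GVBD pair and 695.5 and 673.7 in the MII pair. Its log2 fold change was -5.95 ± 0.55 (adjusted p = 3.31e-24, or 0.000196 with all 12 libraries in 1 edgeR model).

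Mrps18c is 1 of 3 paralogues that descend from a single bacterial protein. Mrps18a, whose product is found in the large subunit despite its name, had 3019.6 and 2380.4 scaled counts in WT GV and 119.6 and 84.3 in WT MII, a log2 change of -4.73 ± 0.58 (adjusted p = 2.35e-14). Mrps18b had 5727.2 and 4660.7 in WT GV and 1298.5 and 932.0 in WT MII, a change of -2.22 ± 0.50 (adjusted p = 6.96e-05). All 3 fell, Mrps18b by the least. No difference between paralogues was tested.

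The other members of the 5 that fell furthest were all of the large subunit. Mrpl52 had few reads, 293 and 227 counts at GV and 17 and 7 at MII, with a log2 change of -5.35 ± 0.76 (adjusted p = 5.61e-11). Mrpl55 had GV libraries at 5745.0 and 2460.8 scaled counts, GVBD libraries at 1141.2 and 483.5, and MII libraries at 105.3 and 135.4, so its GVBD libraries already lay below its GV libraries. Its change from GV to MII was -5.09 ± 0.58 (adjusted p = 1.76e-16). Mrpl11, part of the stalk base where translation factors bind, had 875.6 and 942.0 at GV and 23.9 and 36.6 at MII, a change of -4.89 ± 0.63 (adjusted p = 5.21e-13).

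Members that passed with the smallest changes were Mrpl57 (-1.72), Mrpl9 (-1.59), Mrps31 (-1.45), Mrpl1 (-1.33) and Mrps36 (-1.16). The product of Mrps36 is now regarded as a component of the 2-oxoglutarate dehydrogenase complex rather than of the ribosome. Its scaled counts were 12067.8 and 8707.9 in WT GV and 5160.5 and 4134.9 in WT MII. Mrps36 also has 3 annotated pseudogenes, so its reads may be divided with them.

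The 20 members that did not pass in WT ranged in log2 fold change from -1.97 to 0.55. The upper end held Mrpl45, a membrane anchor of the large subunit, with 2133.3 and 1679.5 scaled counts at GV and 3596.4 and 1991.3 at MII (log2 0.55 ± 0.48, adjusted p = 0.438). Mrpl47 had 17696.5 and 16083.2 at GV and 17281.6 and 10425.5 at MII (-0.29 ± 0.45, adjusted p = 0.709), so its MII libraries overlapped its GV libraries. Mrpl47 overlaps Actl6a and Ndufb5 on the other strand, which had 1476 to 3860 and 366 to 3918 counts over the 12 libraries. Whether their reads entered its count was not tested. Mrpl3, at the core of the large subunit, had 562.4 and 651.5 at GV and 701.9 and 460.2 at MII (-0.06 ± 0.52, adjusted p = 0.952). Mrpl12, which also binds the mitochondrial RNA polymerase, was at -0.61 ± 0.49 (adjusted p = 0.384). The standard errors of these members do not exclude changes near 2-fold.

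The 3′ ends of the annotated transcripts are shown for the members at both ends of this order, because the signals that govern tail lengthening and shortening in oocytes lie there. The 30 last bases are given 5′ to 3′ on the plus strand of GRCm38, with the polyadenylation signal (AATAAA or ATTAAA) and the cytoplasmic polyadenylation element (TTTTAT or TTTTAAT) in capitals. The first 4 belong to the members of lowest WT change with a 3′ UTR of at least 100 bases and the last 4 to those of highest change. Their coordinates are chr5:31622615-31622644, chr5:100804442-100804471, chr11:59206105-59206134, chr19:4966970-4966999, chr11:97329891-97329920, chr2:127606800-127606829, chr9:105079859-105079888 and chr1:79781416-79781445, in the order of the lines. All are the ends of 3′ UTRs. Whether oocytes use these ends was not tested.
Mrpl33: cttAATAAAaaaatatcaaaatagtctata
Mrps18c: tctaagtggttgtcagcagactccaactaa
Mrpl55: tgagagctgggATTAAAggtatctgccatc
Mrpl11: acaATTAAAacTTTTATtacgtgtataatc
Mrpl45: ctttgcctgagATTAAAggagtgctacacc
Mrps5: atttgagAATAAAaaatgtttggcatctaa
Mrpl3: taaatggcttttgcaagtgcccaacataaa
Mrpl44: ttgtaatatgAATAAAaagctattctttga

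Within the last 100 bases, the polyadenylation signal was found in 75.0% of 72 members and in 79.5% of tested genes. The cytoplasmic element was found in 11 of the 72 members (15.3%, against 19.1%). Among the printed transcripts, Mrpl11 at the low end and Mrpl44 at the high end carried it. Of the 11 members with the element, 7 fell in WT, where 17.4% of tested genes with it did. Of the 61 without it, 46 fell, against 29.7% of tested genes without it. The median log2 changes were -2.28 with the element and -2.66 without it, while over all tested genes they were -0.46 and -1.02. Over the 78 members, the correlation of transcript length (log2) with the WT change was 0.29 (Pearson) and 0.31 (Spearman), a description across genes that share the same 4 libraries.

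Genes that act with the mitochondrial ribosome were read from lists set out beside the family. Of 6 subunits without an Mrp symbol (Mterf4, an assembly partner, counted among them), 5 fell in WT from GV to MII, with a median of -3.01. Aurkaip1 (-4.48), Gadd45gip1 (-4.27), Chchd1 (-3.61), Mterf4 (-2.41) and Dap3 (-1.71) were the 5, and Ptcd3 (-0.62) did not pass. Of 20 tested assembly factors 7 fell, at a median of -1.06, the same as that of all genes. Of 16 translation factors and related genes 8 fell, against 30.9% of all tested genes, at a median of -1.27 beside -1.06 over all genes. Those that fell included Slirp (-5.60), which binds mitochondrial messenger RNA, the release factor Mtrf1l (-5.30) and the elongation factor Tufm (-2.80). The elongation factors Tsfm (0.57) and Gfm1 (0.13), the initiation factor Mtif2 (-0.07) and the recycling factor Gfm2 (-0.12) did not pass. Cytosolic ribosomal protein genes fell in 85 of 98 tested (median -3.09), and nuclear genes of oxidative phosphorylation in 70 of 95 (median -2.31).

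**Figure D2:**
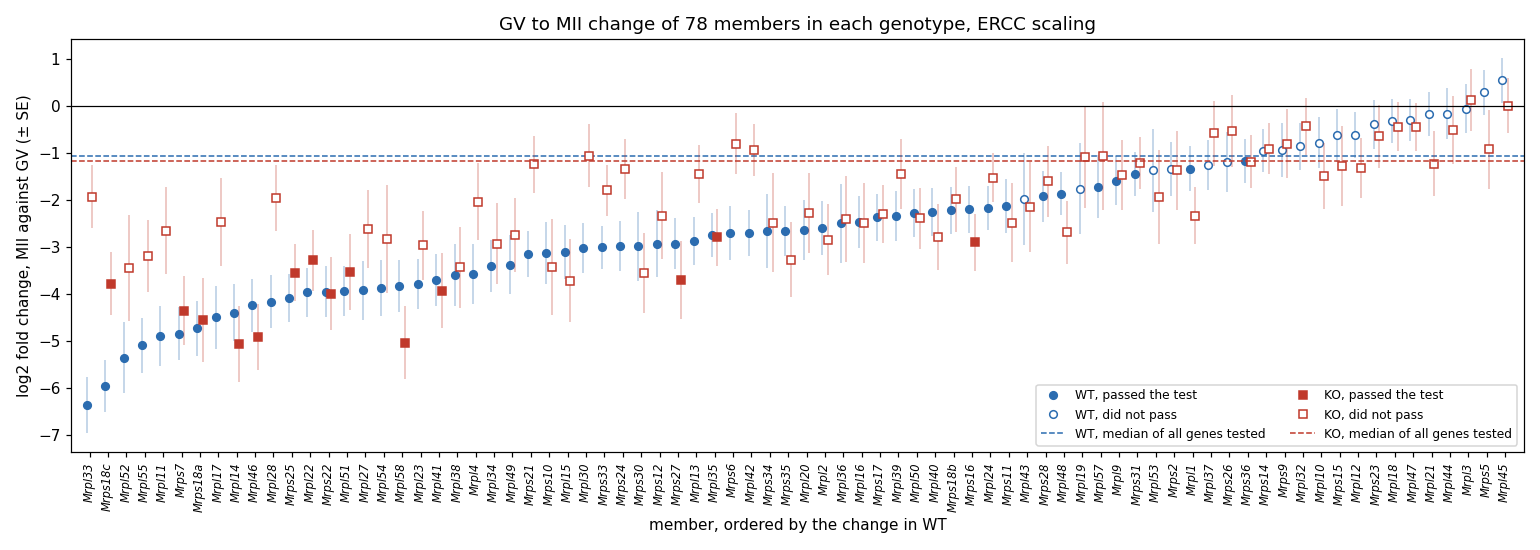
Log2 fold change from GV to MII (y axis, ± SE) of each of the 78 members, ordered along the x axis by the change in WT. Circles are WT and squares are KO, filled where the gene passed the test (58 in WT, 14 in KO). Dashed lines are the medians of all tested genes, -1.06 in WT and -1.17 in KO. Mrpl33 stands at -6.36 in WT and -1.93 in KO.

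The second question was the same change in KO oocytes. The members per 1000 endogenous counts were 12.11 and 12.96 in KO GV, 12.08 and 12.29 in KO GVBD, and 6.29 and 4.58 in KO MII. Per ERCC count they were 1.546 and 1.442, then 1.461 and 1.211, then 0.553 and 0.25. The KO MII libraries lay apart from each other, replicate 1 above both WT MII libraries on both scales and replicate 2 among them or just above. The summed scaled level was 603674.5 ± 29711.9 (SD, n = 2) at GV and 162343 ± 86470.7 (SD, n = 2) at MII, 73.1% lower.

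Of the 78 members, 14 fell in KO from GV to MII and none rose, that is 17.9% against 3.28% of all tested genes. The median log2 change was -2.28 over the members and -1.17 over all genes. The count was 0 without KO GV replicate 1 (0.196% of all genes) and 0 without KO GV replicate 2 (0.27%). It was 68 without KO MII replicate 1 (54.2%) and 43 without KO MII replicate 2 (16.9%). Under the strict filter it was 42, where 17.5% of all genes passed. Both MII libraries lay below both GV libraries for 72 members, and for 61.4% of all tested genes.

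All 14 had also fallen in WT. A further 44 members passed in WT and not in KO, and 42 of these 44 were at least 2-fold lower in KO by their fitted value. Over all tested genes 30.9% passed in WT and 3.28% in KO, so most WT calls were missing in KO there too. The share of all genes that passed in WT only was not computed. By fitted value, 64 members were at least 2-fold lower in WT, where 51.7% of all genes were, and 64 in KO, where 54.9% were. Over the 58 that fell in WT, the WT median was -2.99 on the log2 scale and the KO median -2.63. These 58 were chosen by their WT values, which by itself favours a larger fall in WT. Of all 78 members, 45 had a higher fitted change from GV to MII in KO than in WT and 33 a lower one. In the interaction fit below, the difference was positive for 57.7% of members and 47.2% of all genes. It was positive for 79.2% of cytosolic ribosomal protein genes and 76.8% of oxidative phosphorylation genes.

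The members with the largest decrease in KO differed from the leading members in WT. Mrpl14 had 1201.6 and 1111.2 scaled counts in KO GV and 42.0 and 27.2 at MII (log2 -5.06 ± 0.81, adjusted p = 0.0305). Mrpl58, a peptidyl-tRNA hydrolase that became part of the large subunit and frees stalled ribosomes, had 5627.6 and 5101.7 at GV and 247.2 and 82.4 at MII (-5.03 ± 0.78, adjusted p = 0.0302). Mrpl46 (-4.91), Mrps18a (-4.55) and Mrps7 (-4.35), the last an early-binding protein of the small subunit head, completed the first 5. The smallest changes among the 14 were those of Mrps25 (-3.54), Mrpl51 (-3.53), Mrpl22 (-3.28), Mrps16 (-2.90) and Mrpl35 (-2.79). Mrps22, variants of which are linked to ovarian dysgenesis in people, fell in both genotypes, going from 4674.8 and 4562.0 to 366.1 and 232.3 scaled counts in WT and from 6541.6 and 5680.9 to 603.5 and 167.6 in KO. Its log2 changes were -3.95 ± 0.54 in WT (adjusted p = 1.35e-11) and -3.99 ± 0.77 in KO (adjusted p = 0.0363).

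Of the other members picked for their role, Mrpl41 fell in both genotypes, with log2 changes of -3.70 in WT (adjusted p = 5.47e-10) and -3.93 in KO (adjusted p = 0.0411). Mrps12, whose product lines the decoding site of the small subunit, had 187.5 and 265.1 scaled counts in the WT GV pair and 34.3 and 25.1 in the WT MII pair (-2.93 ± 0.71, adjusted p = 0.00025). In KO it had 340.5 and 271.7, then 98.1 and 23.6 (-2.33 ± 0.92, adjusted p = 0.156). In both genotypes its MII libraries lay below its GV libraries.

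Over the 12 libraries, the members whose log2 scaled counts followed Mrps22 most closely were Mrps18a (Pearson r = 0.991), Mrps35 (0.990), Mrpl46 (0.989), Mrpl51 (0.986) and Mrpl58 (0.986). The correlation of Mrps22 with Mrpl33 was 0.859, with Mrpl47 0.707 and with Mrpl45 -0.091. These values describe 12 libraries in 6 groups that share the step from GV to MII, and most of the range comes from that step.

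**Figure D3:**
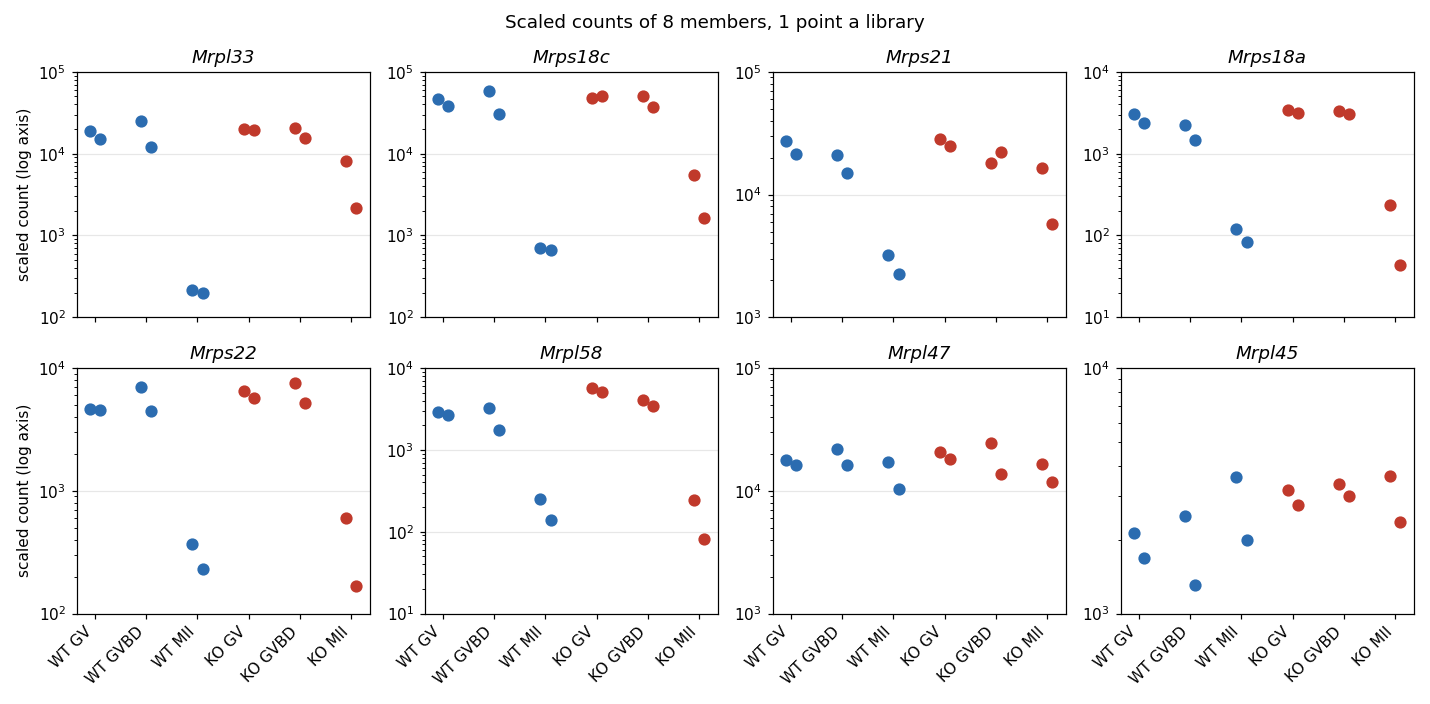
Scaled counts (y axis, log scale) of 8 members in each of the 12 libraries (points, WT blue, KO red), by genotype and stage on the x axis. Mrpl33 has 216.1 and 196.6 in the WT MII pair and 8217.5 and 2190.4 in the KO MII pair. Mrps18a, Mrps22 and Mrpl58 are low in all 4 MII libraries. The GV and MII libraries overlap in both genotypes for Mrpl45 and in WT only for Mrpl47.

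The third question was whether KO and WT differed at a given stage. At GV no member passed, where 0.0977% of all genes did (edgeR quasi-likelihood test). At an unadjusted p under 0.05 there were 18 members, against 17.9% of all genes, and DESeq2 called 2, Mrps30 and Mrps11 (6.18% of all genes). The members had a median of 0.29 (KO against WT, log2) and all genes one of 0.36. The smallest p belonged to Mrpl58, with 2879.6 and 2641.3 scaled counts in WT and 5627.6 and 5101.7 in KO (log2 0.96 ± 0.17, adjusted p = 0.127). Mrpl15 (0.86 ± 0.21) and Mrpl24 (0.61 ± 0.15) followed. Both KO libraries lay above both WT libraries for 39 members (42.2% of all tested genes) and below for 4 (9.69%). Fitted values were above 0 for 64 of the 78 members and 72.7% of all genes with ERCC scaling, and for 32 members and 50.3% of all genes with TMM scaling. The member median lay 0.07 below that of all genes under both scalings.

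At GVBD again no member passed, where 2.54% of all genes did. At an unadjusted p under 0.05 there were 15 members, against 14.9% of all genes, and DESeq2 called 7 (4.63% of all genes). The median was 0.59 over the members and 0.23 over all genes. The leading values were those of Mrps27 (log2 1.91 ± 0.53, adjusted p = 0.0574), Mrps7 (1.85 ± 0.52, adjusted p = 0.0620) and Mrpl12 (1.85 ± 0.52, adjusted p = 0.0620). Mrps27, a pentatricopeptide repeat protein of the small subunit, had 681.2 and 545.5 scaled counts in WT and 2484.6 and 2119.5 in KO. Mrpl12 had 980.3 and 1053.8 in WT and 3467.9 and 3853.5 in KO. In both genes the KO libraries stood clear of the WT libraries. Blood markers summed to 2319.47 and 2141.75 per 1000000 in the WT GVBD libraries and to 3.84 and 7.17 in the KO ones, and their part in this comparison was not tested. All 3 passed under the strict filter (3.44% of all genes), at adjusted p from 0.0295 to 0.0342. Of the subunits without an Mrp symbol, Aurkaip1 was higher in KO (2.57 ± 0.56, adjusted p = 0.0149).

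The early step, from GV to GVBD, was compared within each genotype. In WT no member passed (background 0.0511%), 14 had an unadjusted p under 0.05 against 6.25% of all genes, and DESeq2 called 5 (2.04% of all genes). Mrpl23 (log2 -1.68 ± 0.38, adjusted p = 0.256), Mrps7 (-1.84 ± 0.42, adjusted p = 0.256) and Mrps5 (-1.85 ± 0.43, adjusted p = 0.266) had the smallest p. Mrpl23 had 8361.2 and 8351.2 scaled counts in WT GV and 3142.0 and 2064.2 in WT GVBD. It has an annotated pseudogene with 119 to 2501 counts in a library, so its reads may be divided with that pseudogene. Mrps7 had 11132.8 and 6768.9 in WT GV and 2963.6 and 2047.3 in WT GVBD, against 10638.1 and 8620.3 in KO GV and 8756.1 and 9356.1 in KO GVBD. In both genes the WT GVBD libraries lay below all other GV and GVBD libraries. Under the strict filter 4 members passed, Mrpl23, Mrps7, Mrps5 and Mrpl55 (0.993% of all genes). In KO no member passed either (background 0.22%), and 1 had an unadjusted p under 0.05, against 7.65% of all genes. This was Mrps26 (1.22 ± 0.47, adjusted p = 0.581), ahead of Mrps31 (-0.57) and Mrpl38 (0.73). DESeq2 called 0 members (1.24% of all genes). The 2 genotypes' steps from GV to GVBD were not tested against each other, and the WT GVBD libraries are shared with the comparison of KO and WT at GVBD.

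At MII, 1 member passed, against 0.803% of all genes. Mrpl33 was higher in KO, with 271 and 408 counts in WT and 8211 and 3058 in KO, or 216.1 and 196.6 against 8217.5 and 2190.4 scaled counts. Both KO libraries lay above both WT libraries by about 1 order of magnitude or more. The log2 fold change was 4.66 ± 0.92 (adjusted p = 0.000228). At GV its 4 libraries lay between 15103.1 and 20185.6 scaled counts, and at GVBD between 11982.1 and 24954.6 with both genotypes interleaved. In KO its own change from GV to MII was -1.93 ± 0.67 (adjusted p = 0.116). That change passed in 5 of 7 other settings, with adjusted p from 0.0157 to 0.115, and missed with TMM and median-of-ratios scaling.

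The call of Mrpl33 passed in 5 of 8 alternative settings other than leaving out libraries, with log2 fold changes from 4.14 to 4.66 and adjusted p from 1.17e-07 to 1. It passed with TMM scaling (4.15, adjusted p = 0.0461) and missed with median-of-ratios scaling (4.14, adjusted p = 0.0541). It was also lost with the replicate number as a block (4.36, adjusted p = 0.0624) and with the numbers crossed, an alternative chosen after seeing the data (adjusted p = 1.0). Without KO MII replicate 1, where blood markers summed to 690.07 per 1000000 against 1.23 in replicate 2, it was 3.41 (adjusted p = 0.0446). Without WT MII replicate 1 the value was 4.73 (adjusted p = 0.606) and without WT MII replicate 2 it was 4.59 (adjusted p = 0.995). The gene lies at chr5:31596935-31664384 on the plus strand and overlaps Rbks on the other strand, which had 28 to 151 counts in any library, and Gm43809, which had at most 12.

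No other member passed at MII. The median was 0.44 over the members and 0.30 over all genes, and 10 members had an unadjusted p under 0.05, against 7.32% of all genes. Fitted values were above 0 for 57 members and 63.5% of all genes, or with TMM scaling for 43 members and 50.0% of all genes. Mrps18c had 695.5 and 673.7 scaled counts in WT and 5534.4 and 1631.0 in KO (log2 2.39 ± 0.85, adjusted p = 0.209), and the KO libraries did not overlap the WT libraries. Mrps6 (2.48, adjusted p = 0.287) and Mrps21 (2.02, adjusted p = 0.278) had similar values. DESeq2 called Mrps18c and Mrps6 beside Mrpl33 (2.05% of all genes). The paralogues of Mrps18c were at 0.45 ± 1.0 for Mrps18a and 0.64 ± 0.83 for Mrps18b, values whose errors span both no change and more than 2-fold. Among the other gene groups, 7 of 98 cytosolic ribosomal protein genes were higher in KO at MII, with a median of 0.83, and 5 of 95 genes of oxidative phosphorylation, with a median of 0.72.

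**Figure D4:**
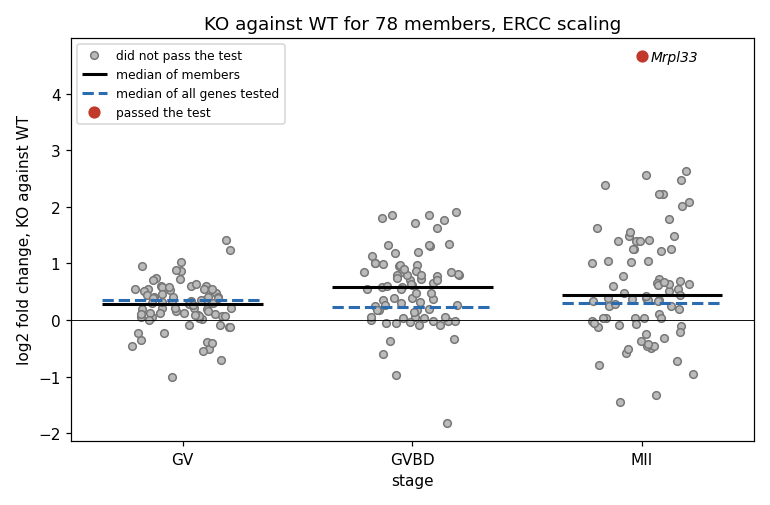
Log2 fold change of KO against WT (y axis) for the 78 members at each stage (x axis), 1 point a gene. Solid bars are the medians of the members (0.29, 0.59 and 0.44) and dashed bars the medians of all tested genes (0.36, 0.23 and 0.30). Mrpl33 at MII, at 4.66, is the 1 point that passed the test.

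The difference between genotypes in the change from GV to MII was tested as an interaction over the 8 GV and MII libraries. With the filter and scaling used throughout no member passed, and no gene of the table did (0.0% of 20807). Mrpl33 had the smallest p among members (log2 difference 4.43 ± 0.81, unadjusted p = 0.000165, adjusted p = 0.207). It passed in 5 of 7 other settings, with adjusted p from 2.33e-06 to 0.24, TMM scaling (adjusted p = 0.0292) and DESeq2 (adjusted p = 2.43e-05) among them. Mrps18c (2.17 ± 0.74, adjusted p = 0.630) and Mrpl28 (2.20 ± 0.80, adjusted p = 0.663) came next. In all, 8 members had an unadjusted p under 0.05, against 5.75% of all genes, and DESeq2 called 1 (0.897% of all genes). The median difference was 0.16 over the members and -0.07 over all genes. It was 0.82 over the cytosolic ribosomal protein genes and 0.79 over the genes of oxidative phosphorylation. The comparisons of genotype and of stage share their libraries, so these values are not independent of those above.

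Over all stages together, with stage as a term, no member passed where 1.26% of all genes did. At an unadjusted p under 0.05 there were 22 members, against 18.8% of all genes, and DESeq2 called 7 (7.64% of all genes). The median was 0.53 over the members and 0.29 over all genes, and 69 members had a fitted value above 0, as had 66.0% of all genes. The smallest p values were those of Mrps6 (1.30 ± 0.33, adjusted p = 0.0703), Mrpl4 (1.42 ± 0.36, adjusted p = 0.0703) and Mrpl37 (0.98 ± 0.28, adjusted p = 0.0916). Mrps6 had 643.0 to 918.6 scaled counts in the WT GV and GVBD libraries and 973.4 to 1899.2 in the KO ones, then 122.8 and 97.3 in the WT MII pair, and 699.6 and 527.2 in the KO MII pair. Its KO libraries lay above its WT libraries at every stage. With TMM scaling 51 members and 51.3% of all genes were above 0, and the 1 member that passed was Mrps10, lower in KO (1.58% of all genes; 254 and 234 counts in WT GV, 100 and 103 in KO GV).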

How the data were processed

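The deposited table holds raw counts of reads, which the authors did not normalize. Per the labels, reads were processed with cutadapt 1.9, HISAT2 2.0.4 and StringTie 1.3.4d on mm10, and the methods describe unique mapping to GRCm38 with ERCC sequences. Use of strand is not given in the sources used here, and 42 members overlap another annotated gene, 36 of them on the other strand. The methods describe lysed oocyte pools and template-switching cDNA, the labels a bulk preparation. PCR copies cannot be told from molecules, and unique mapping lowers counts of genes with near-identical copies.

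Symbols matched 52073 genes. Members and lists were chosen with earlier results of these data known. Each comparison used the libraries of its groups in edgeR 4.0.16 (filterByExpr, glmQLFit, glmQLFTest, R 4.3.3), with library sizes in proportion to ERCC counts and Benjamini-Hochberg adjustment over all tested genes. Each SE came from the log2 fold change and its F value (their ratio after a square root of F). The script was tested on simulated data. Correlations used a pseudocount of 0.5. Replicates are biologically independent according to the study. Alternatives were TMM and median-of-ratios scaling, no filter, at least 10 counts in every library, DESeq2 1.42.0, a replicate block, all 12 libraries in 1 model, no fold minimum and leaving out each library.

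Members were named by rule: the 5 highest and 3 lowest levels per kilobase, up to 5 at each end of those that passed in a comparison, the 3 smallest p values where none passed, all that passed between genotypes, a list of roles (Mrps18a, Mrps18b, Mrps18c, Mrpl12, Mrps12, Mrpl3, Mrpl11, Mrps22, Mrps7, Mrpl41, Mrps36) and the 5 most like Mrps22. Mrpl45, Mrpl47, Mrps5, Mrpl44, Mrps21, Mrps6, Mrps10, Mrps11 and Mrps30 were named at further points after their values were seen.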

Additional observations from a re-analysis of the deposited data

Results flagged for a closer look

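In 7 cases both libraries of one group moved one way and both libraries of the other moved the opposite way, and none of these differences between effects was tested. They were picked from all members, so chance gives some. The share of all genes with such cases was not computed, so the 7 cannot be set against it. For KO against WT, Mrpl23 had an effect that was 1.43 higher on the log2 scale at GVBD than at GV. For Mrpl30 the effect was 0.84 higher at GVBD than at GV and 1.94 higher at MII than at GV. Its scaled counts were 4021.0 and 2436.8 in WT GV, 2432.4 and 2304.0 in KO GV, 500.1 and 304.1 in the WT MII pair, and 1653.3 and 611.7 in KO MII. For Mrps5 the effect at MII lay below that at GVBD (-2.43), with 539.1 and 574.7 in WT GVBD, 769.6 and 1449.7 in KO GVBD, 2967.1 and 1960.5 in the WT MII pair, and 1576.2 and 244.3 in KO MII. Mrps16 moved in the same sense (-1.58), with 3915.7 and 2165.1 in WT GVBD and 5533.2 and 4945.2 in KO GVBD, then 1592.8 and 936.9 in the WT MII pair and 667.5 and 791.5 in the KO MII pair. Between GV and GVBD, Mrpl38 went from 378.5 and 355.4 to 301.7 and 231.1 in WT and from 526.2 and 533.3 to 971.8 and 782.2 in KO, a difference of 1.19. Mrps24 went from 2820.3 and 1731.7 to 1562.3 and 976.7 in WT and from 2250.3 and 2019.5 to 3629.1 and 2719.9 in KO, a difference of 1.41.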

How the results depend on the processing

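In WT from GV to MII, 49 to 60 members fell under the alternatives that kept all libraries (58 as reported), while 2 rose with TMM and 2 with median-of-ratios scaling. Under these alternatives 17.4% to 34.8% of all genes passed in either direction, against 30.9% as reported. With 1 library left out, the share of all genes that passed was below 30.9% in each fit. A lower member count in those fits is thus not particular to the family. The count was 36 to 59 with 1 library left out, with 36 without WT GV replicate 1 and 38 without replicate 2. In KO the 14 members (3.28% of all genes) became 23 with TMM scaling (5.06%) and 21 with median-of-ratios scaling (4.82%), each of which held 13 of the 14. They became 39 without a filter on low counts (9.32%), 42 with the strict filter of 10 counts (17.5%), 41 with DESeq2 (16.3%), 39 with the replicate block (13.1%) and 43 with all 12 libraries in 1 model (13.3%), each holding all 14, and ranged from 0 to 68 with 1 library left out. For KO against WT, DESeq2 called 2 members at GV and 7 at GVBD, where no filter gave 4 and the strict filter 3, and leaving out a library gave 0 to 0 at both stages. At MII the count of 1 became 0 with median-of-ratios scaling, 0 with the replicate block, 2 with all 12 libraries and 3 with DESeq2, and 0 to 3 with 1 library left out. In WT from GV to GVBD the count of 0 became 4 without a filter, 4 with the strict filter, 5 with DESeq2, 3 with the replicate block and 0 to 1 with 1 library left out, and in KO it was 0 to 2. The interaction gave 1 member with TMM scaling, without a filter, with the strict filter and with DESeq2, 2 with median-of-ratios scaling, and 0 to 4 with 1 library left out. Over all stages the counts were 1 with TMM scaling, 2 with median-of-ratios scaling, 5 without a filter, 3 with the strict filter, 7 with DESeq2, 3 with the replicate block, 3 with all 12 libraries and 0 to 5 with 1 library left out. For KO against WT, DESeq2 called 6.18% of all genes at GV, 4.63% at GVBD, 2.05% at MII and 7.64% over all stages. It called 2.04% from GV to GVBD in WT and 0.897% in the interaction. The strict filter gave 3.44% for KO against WT at GVBD and 0.993% from GV to GVBD in WT. TMM scaling gave 1.58% as lower over all stages. For the other alternatives of these comparisons no share of all genes was computed. Where 1 library was left out, the lone library was assumed to vary like the other group. Among values of named members, 368 were labelled as unchanged, 44 gained a call, 58 lost it and none changed sign. The 368 include the summed level of the family in each genotype, which has no call. The causes of these changes were not tested.

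Replicate numbers did not pair the libraries: deviations of same-numbered libraries correlated between genotypes at r = -0.21 (GV), 0.11 (GVBD) and -0.14 (MII). Crossing the numbers, an alternative chosen after seeing the data, gave 0 members at GV and 0 at MII in the block fit. With 2 libraries a group the spread of each member is poorly known, and ERCC counts fix the scale of every log2 value.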
